A study of Rattus norvegicus with 9 samples.

Results

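Rat oligodendrocyte precursor cells (OPCs) treated with bavisant at 10 µM were compared with the same kind of culture treated at 1 µM, across all genes. Bavisant is an antagonist of the histamine H3 receptor. The comparison takes 6 of the 9 libraries of the series, chosen by their titles: 3 at 10 µM and 3 at 1 µM, each group holding a library numbered P11, P13 and P14. The other 3 libraries were basal, without bavisant, and carry the same numbers. All 9 came from OPCs of wild-type rat brain in primary culture, held in differentiation medium without or with the drug and collected on day 5. The question that the design puts to these libraries is whether the higher dose changes gene expression beyond the lower dose. The dose in the treatment label and in the design text is 1 µM, whereas a protocol text writes 1 mM for it. What P stands for is not explained in the titles, and nothing read here says whether each number was its own animal or culture, so the p-values may measure only a technical spread.

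OPCs are the dividing precursors that settle across the brain and mature into oligodendrocytes, the cells that wrap axons in myelin. Maturation switches on the myelin proteins and draws heavily on cholesterol, which myelin needs in bulk and which brain cells make themselves. The sterol sensor SREBP2 drives the synthesis genes when membrane cholesterol is low, and the oxysterol receptors LXR drive export genes when it is high. Primary glial cultures also keep some microglia and astrocytes, whose genes appear in the same RNA.

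The treated libraries held 34.8 to 43.1 M estimated reads (M, 1e+06), and the basal ones 23.9 to 33.5 M. Of the variance of log2 expression over the 6 treated libraries, the P number took 71.6%, the dose 13.6% and the remainder 14.8%. Treated libraries of the same P number deviated from their group means together (correlation 0.319 to 0.772 in 3 pairs), while the 6 pairs of different numbers ranged from -0.678 to 0.156. The P11 libraries lay apart on the first principal component of the 6 (-54.41 at 1 µM and -49.79 at 10 µM, against 3.185 to 47.55 for the other 4). The 1 µM P13 library stood apart in another way, most of all by high interferon-stimulated genes, described with that group. Of the 9 libraries it was also the highest in 15 of 28 tested NF-kB and cytokine genes and 18 of 30 microglia markers. In 11 of 13 mitochondrially encoded genes and 17 of 48 myelin genes it was the lowest. It carries the top value of 12.2% of all 15321 tested genes among the 9 libraries, less than the 13.1% to 13.4% of each basal library. The other treated libraries carry 6.74% to 11.2%.

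The label of oligodendrocyte lineage cells held against the markers. Mbp, the myelin basic protein gene, reached 18284 (P11), 18221 (P13) and 21720 (P14) TPM (transcript level scaled by gene length and library total) at 1 µM. Sox10, the lineage regulator, read 576, 509 and 550 TPM there, and Pdgfra, the growth factor receptor of precursors, 96.1, 233 and 243 TPM. Astrocyte RNA was present as well, with Gfap at 652, 1115 and 1106 TPM, and so was microglial RNA, with Aif1 at 150, 236 and 187 TPM. In bulk samples fewer cells of a type and less RNA per cell cannot be told apart.

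At 10 µM 659 of 15321 genes differed from 1 µM at an adjusted p under 0.05 in edgeR's quasi-likelihood test with the P number as a block (4.3% of the genes tested). Of these, 200 were higher (1.31%) and 459 lower (3%) at the higher dose, so 69.7% of the called genes were lower. Most changes were small, and in what follows ± gives the SE of the fitted change over 3 libraries a dose. The median called gene differed 1.36-fold, with 1.24-fold among the higher and 1.43-fold among the lower genes, and 177 passed 1.5-fold, of which 10 were higher and 167 lower. A change of 2-fold was passed by 31 (3 higher and 28 lower). The largest fitted changes were 377-fold among the higher and 759-fold among the lower genes, and these are not among the genes named below. All 659 moved in one direction in P11, P13 and P14, which a call made with the P number as a block largely fixes, and so did 42.5% of all tested genes. The TPM of both groups did not overlap for 269 of them (40.8%), against 9.33% of all tested genes. Called genes that were higher were abundant ones, with a median of 89.5 TPM at 1 µM, and those that were lower were scarcer, at 15.8 TPM.

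The calls rest on the pairing and on few libraries. With the P number left out of the edgeR fit no gene was called (717 at an unadjusted p under 0.05, against 3246 with it), and the lowest adjusted p rose from 0.0123 to 0.867. With the 6 treated libraries fitted alone none was called either (lowest adjusted p 0.0617, 2677 at an unadjusted p under 0.05). Leaving out the 1 µM P11, the 1 µM P14 or the 10 µM P14 library ended every call, with 2827, 2388 and 2841 genes at an unadjusted p under 0.05. Without the 1 µM P13 library 31 were called, without the 10 µM P13 library 182, and without the basal P14, P11 or P13 library 309, 420 or 435, whereas 651 were called without the 10 µM P11 library. In each of these 9 runs all 659 genes kept their direction and an unadjusted p under 0.05. The genes were chosen by their p in these same libraries, which largely fixes this outcome, so it is no separate support. The counts below carry the limit that calls rest on the pairing and on few libraries. The gene lists below were drawn up with earlier results of these data known. A share called above that of all genes can therefore come partly with the choice of members.

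**Figure D1:**
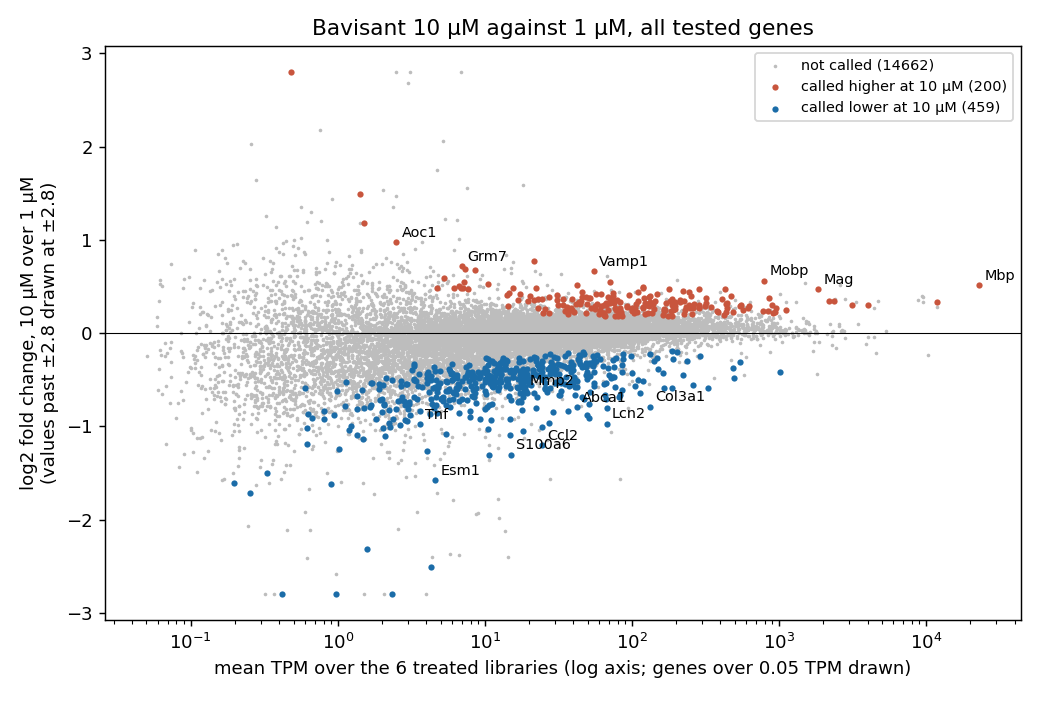
Each point is 1 tested gene, by its mean TPM over the 6 treated libraries (log axis) and its fitted log2 fold change of 10 µM over 1 µM, with called genes in red (200 higher) and blue (459 lower). Changes past the limits of the vertical axis are drawn at the limits. The higher genes sit to the right, with Mbp and Mag at the far end, and the lower genes spread over the scarce and middle range.

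Myelin genes were higher at 10 µM. Of 48 tested myelin and mature oligodendrocyte genes 15 were called higher and 1 lower (33.3% called against 4.3% of all genes), with a median log2 fold change of 0.24 beside -0.0045 over all genes, and 0.24 in P11, 0.28 in P13 and 0.18 in P14. Mbp rose from 18284, 18221 and 21720 TPM to 24954, 27242 and 26847 TPM. Every library at 10 µM lay above every library at 1 µM, and the fitted change was 1.43-fold (log2 0.51 ± 0.07 SE, adjusted p = 0.0141). Mbp alone took 2.11% to 2.46% of all reads at 1 µM and 2.91% to 3.29% at 10 µM. Mag, the adhesion protein of the innermost myelin layer, went from 1875, 1280 and 1633 to 2612, 1786 and 1885 TPM (log2 0.47 ± 0.08, adjusted p = 0.0228).

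Other called members cover the parts of the sheath. Cnp, an enzyme of non-compact myelin, rose from 4122, 3410 and 3569 to 4773, 4175 and 4113 TPM. Aspa, which breaks down N-acetylaspartate for lipid synthesis, rose from 109, 134 and 148 to 148, 170 and 179 TPM. Mobp, a late myelin protein, rose from 1297, 269 and 341 to 2034, 393 and 431 TPM (log2 0.56 ± 0.11, adjusted p = 0.0355). In Mobp the P11 libraries stood far above the rest at either dose. Nfasc, which anchors the axon-glia junction, and Tspan2, a membrane protein of myelin, rose by 0.23 and 0.27 on the log2 scale. Adamts4, a protease made by mature oligodendrocytes, rose from 261, 248 and 284 to 294, 291 and 334 TPM, without overlap. Mog, on the outer face of the sheath, read 130, 40.6 and 40.8 TPM at 1 µM and 172, 44.3 and 43.5 TPM at 10 µM and did not pass (adjusted p = 0.144). Tf, the iron carrier transferrin, was the only member called lower, from 71.1, 93.9 and 79.6 to 60.2, 49.8 and 46.2 TPM (log2 -0.53 ± 0.12, adjusted p = 0.0455). In the list 39 members had a positive and 9 a negative fitted change. At an unadjusted p under 0.05, 32 were higher and 4 lower (8.43% and 12.8% of all genes were). None of the list was called without the 1 µM P13 library, and its median was then 0.19.

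Few regulators and no precursor markers were called. Of 25 lineage transcription factors 2 were called, both higher (8% called beside 4.3% of all genes). Myrf, the factor that turns on myelin genes, rose from 403, 307 and 356 to 426, 353 and 412 TPM (log2 0.24 ± 0.05). Olig1 rose from 979, 1064 and 1125 to 1116, 1216 and 1201 TPM (log2 0.24 ± 0.05). Sox10 went from 576, 509 and 550 to 625, 642 and 593 TPM and Olig2 from 457, 438 and 451 to 519, 480 and 437 TPM, and neither passed (adjusted p = 0.0610 and 0.148). Of 21 markers of newly formed oligodendrocytes 2 were called, both higher (9.52% called). Rras2, a small GTPase, rose from 104, 163 and 194 to 147, 231 and 231 TPM. Sirt2, a deacetylase of myelinating cells, rose from 3167, 2753 and 2825 to 3493, 3389 and 3291 TPM. In that list 17 had a positive fitted change (median 0.17), 10 were higher at an unadjusted p under 0.05 (8.43% of all genes were), and 8 were called without the 10 µM P11 library. Of 21 OPC markers edgeR called none (2 lower at an unadjusted p under 0.05, against 12.8% of all genes), DESeq2 called 1 and limma none, and their median was -0.03. Pdgfra read 94.5, 237 and 267 TPM at 10 µM (log2 0.11 ± 0.05, adjusted p = 0.260). Cspg4, the NG2 proteoglycan of precursors, read 18.1, 30.4 and 35.4 TPM at 1 µM and 21.1, 27.7 and 36.0 TPM at 10 µM. Gpr17, a receptor of the stage between precursor and myelinating cell, went from 681, 582 and 526 to 754, 392 and 384 TPM, up in P11 and down in the others (adjusted p = 0.555).

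Genes of cholesterol synthesis and uptake were higher at 10 µM, from the entry steps to the last ones. Of 27 tested, 16 were called higher and none lower (59.3% called), with a median log2 fold change of 0.30, or 0.36 in P11, 0.16 in P13 and 0.36 in P14. At the entry, Hmgcs1 rose from 725, 813 and 764 to 922, 910 and 1013 TPM (log2 0.38 ± 0.06, adjusted p = 0.0228). In the isoprenoid steps Mvk, Idi1 and Fdps rose by 0.33, 0.45 and 0.33 on the log2 scale, Idi1 from 207, 212 and 170 to 280, 233 and 243 TPM.

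The sterol steps followed the same direction. Sqle, which makes squalene epoxide, read 168, 208 and 172 TPM at 1 µM and 209, 210 and 216 TPM at 10 µM. Cyp51, which removes a methyl group from lanosterol, rose from 398, 454 and 399 to 511, 509 and 546 TPM, without overlap. Enzymes of the last ring steps rose as well: Sc5d from 104, 107 and 114 to 134, 123 and 145 TPM, and Dhcr7 from 132, 128 and 122 to 161, 147 and 145 TPM. Insig1, the retention protein that is itself a sterol-regulated gene, rose from 236, 296 and 211 to 322, 354 and 297 TPM (log2 0.47 ± 0.07, adjusted p = 0.0182). Of the list 6 were called without the 1 µM P13 library, with a median of 0.35.

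LXR targets moved the other way. Of 11 tested, 5 were called lower and none higher (45.5% called), with a median of -0.38. Abca1, a cholesterol exporter, fell from 68.4, 43.4 and 49.3 to 44.9, 22.1 and 24.9 TPM, 1.73-fold (log2 -0.79 ± 0.11, adjusted p = 0.0160). It fell in each P number, and the P11 libraries were the highest of each dose. Abcg1, its partner in export, fell from 24.9, 29.8 and 27.9 to 18.1, 19.8 and 18.7 TPM, with no overlap (log2 -0.45 ± 0.05, adjusted p = 0.0129). Srebf1, which encodes the regulator of fatty acid synthesis, fell from 18.6, 16.7 and 26.02 to 10.5, 12.1 and 16.0 TPM (log2 -0.58 ± 0.12, adjusted p = 0.0362). Mylip, a ubiquitin ligase, and Smpdl3a, a secreted phosphodiesterase, fell by 0.38 and 0.51 on the log2 scale. Apoe, the main lipid carrier of the brain, read 3796, 3983 and 4656 TPM at 1 µM and 3359, 4013 and 3461 TPM at 10 µM and did not pass (adjusted p = 0.530), and neither did Scd, a desaturase (log2 0.07 ± 0.08). Without the 1 µM P13 library 1 of the list was called.

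Of 24 fatty acid and complex lipid genes 4 were called higher and 1, Srebf1, lower (20.8% called beside 4.3% of all genes). The list had no common direction, with 11 members positive, 13 negative and a median of -0.006. The 4 called higher include Elovl1 and Cers2, which make very long acyl chains and the ceramides that hold them. The others are Gal3st1, which makes sulfatide, and Acss2, which activates acetate. Elovl1 rose from 427, 354 and 334 to 541, 395 and 411 TPM, Cers2 from 329, 243 and 220 to 388, 275 and 255 TPM and Gal3st1 from 115, 108 and 110 to 130, 127 and 123 TPM. Of 21 PPAR and fatty acid oxidation genes 2 were called, both lower (9.52% called), while 12 had a positive and 9 a negative fitted change. Of these 2, Plin2, a lipid droplet coat protein, fell from 12.4, 14.95 and 13.99 to 9.36, 10.9 and 8.45 TPM. Angptl4, an inhibitor of lipoprotein lipase, fell from 2.34, 4.45 and 2.47 to 1.41, 1.66 and 1.18 TPM. In either the groups do not overlap.

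**Figure D2:**
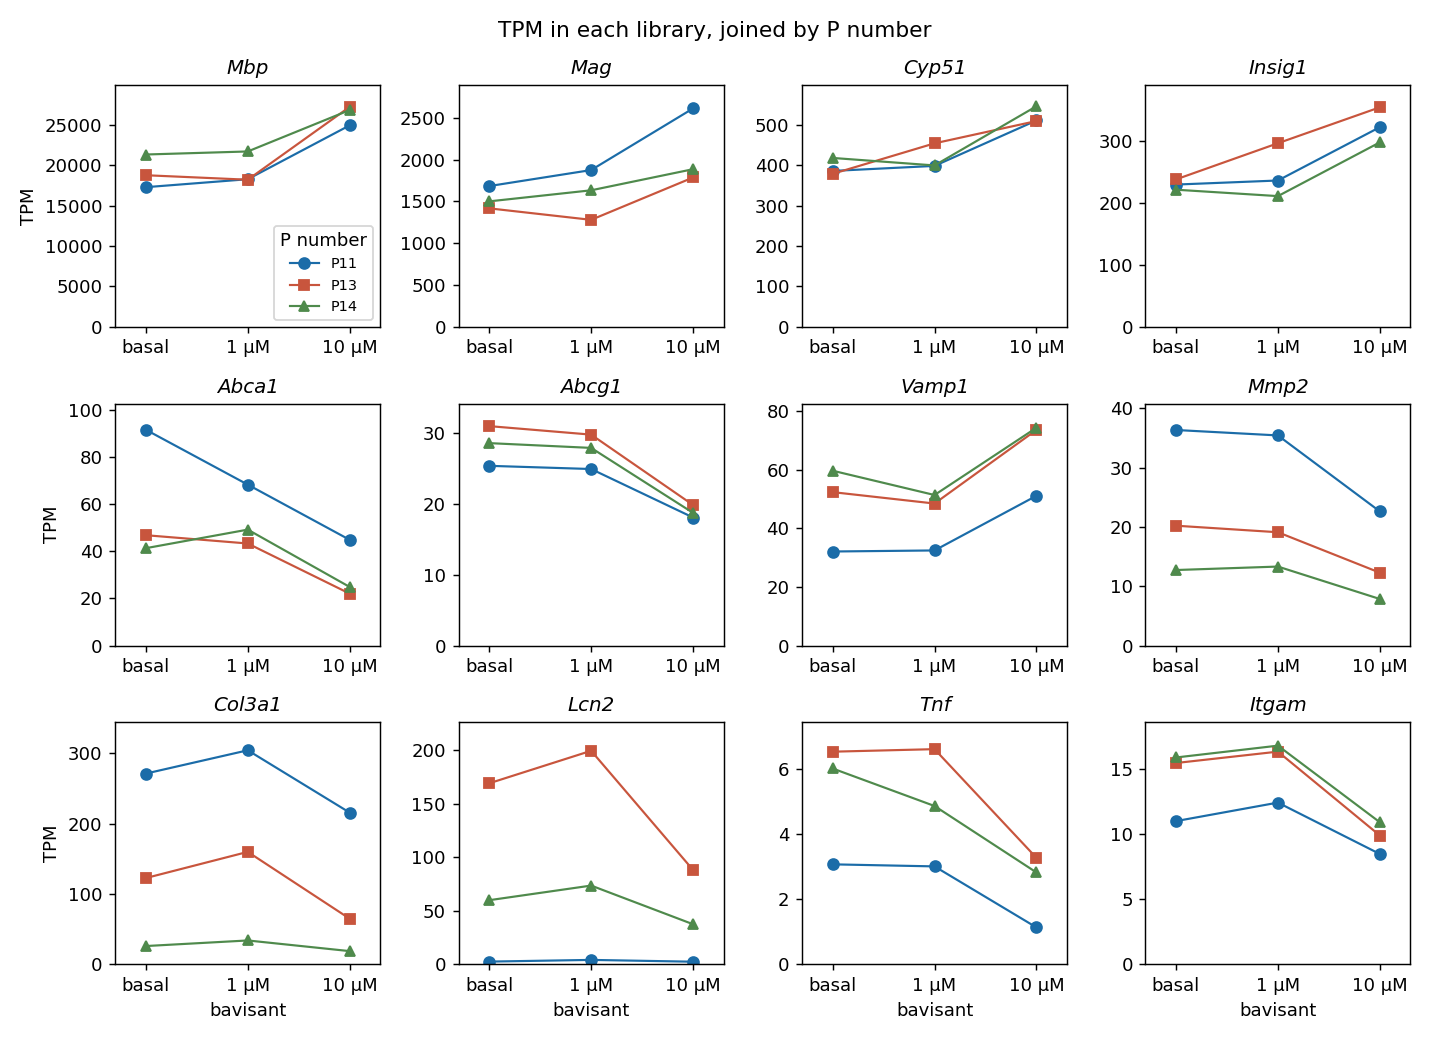
TPM (vertical axes, from 0) of 12 genes in the basal, 1 µM and 10 µM libraries, with a line for each P number. Mbp, Mag, Cyp51, Insig1 and Vamp1 go up from 1 µM to 10 µM along each line and the other 7 go down along each line, while the lines start at different heights.

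The histamine receptors were scarce. Hrh3, the receptor that bavisant blocks, read 0.473, 0.411 and 0.849 TPM at 1 µM and 0.235, 0.477 and 0.313 TPM at 10 µM (log2 -0.29 ± 0.35, adjusted p = 0.674). Hrh1, another histamine receptor, read 2.15, 2.45 and 4.45 against 2.06, 2.69 and 3.39 TPM (log2 -0.06 ± 0.21, adjusted p = 0.909). Of 7 tested genes of the system 1 was called (14.3% beside 4.3% of all genes), Aoc1, the diamine oxidase that breaks down histamine. It rose from 0.123, 2.00 and 2.97 to 0.158, 4.26 and 5.44 TPM (log2 0.97 ± 0.18, adjusted p = 0.0295). Aoc1 was the largest rise under the naming rule and was barely present in P11 at either dose. Maob and Aldh7a1, later enzymes of histamine breakdown, did not pass (log2 0.25 ± 0.17 and 0.02 ± 0.07), and Aldh7a1 was at 76.7 to 90.5 TPM over the 6 treated libraries.

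The other large rises under the naming rule were genes of several kinds. Vamp1, a vesicle SNARE, rose from 32.4, 48.4 and 51.3 to 51.1, 73.5 and 74.3 TPM, 1.58-fold, with an adjusted p at the lowest of all genes (log2 0.66 ± 0.06, adjusted p = 0.0123). Grm7, a metabotropic glutamate receptor, rose from 5.29, 6.35 and 4.61 to 9.07, 8.29 and 8.05 TPM, and Sgk2, a kinase, from 6.06, 5.39 and 5.73 to 10.5, 7.79 and 8.58 TPM. S1pr5, the sphingosine-1-phosphate receptor of mature oligodendrocytes, rose from 65.6, 51.6 and 62.7 to 91.9, 74.8 and 82.3 TPM. Each of these 3 shows no overlap of the groups. Nfe2l3, a transcription factor, Dapk2, a kinase, Kif17, a motor protein, and Ppp1r14a, a phosphatase inhibitor, rose 1.59-, 1.46-, 1.44- and 1.43-fold. S1pr3, another receptor of the S1P family and named after its values were seen, fell from 12.5, 24.6 and 28.1 to 7.76, 14.3 and 15.2 TPM (log2 -0.73 ± 0.07, adjusted p = 0.0123).

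Among the largest falls under the naming rule were secreted and matrix proteins. Esm1, a proteoglycan of endothelial cells, went from 9.64, 9.61 and 1.09 to 5.26, 1.51 and 0.317 TPM, 2.98-fold lower. S100a6, a calcium-binding protein, fell from 22.1, 36.2 and 6.51 to 13.1, 10.2 and 2.22 TPM. Mmp9, a gelatinase, fell from 10.5, 4.63 and 2.17 to 4.46, 1.56 and 0.896 TPM. In these 3 genes the P14 libraries were the lowest at each dose, so the ranges overlap. Aebp1, a matrix protein of connective tissue, and Plac8 fell 2.12- and 2.07-fold. Gbp6, a guanylate-binding protein, and Ms4a6e, a membrane protein of the MS4A family, fell 2.13- and 2.03-fold, and reads of either can be shared with close paralogs. Ms4a6e lay at 14.7, 14.6 and 13.8 TPM at 1 µM, against 5.76, 7.65 and 6.85 TPM at 10 µM and 6.05, 10.2 and 10.5 TPM in basal cultures.

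Genes of the extracellular matrix were lower at 10 µM. Of 33 tested, 16 were called lower and none higher (48.5% called), all 33 had a negative fitted change, and the median was -0.48 (-0.36, -0.66 and -0.41 in P11, P13 and P14). Mmp2, another gelatinase, fell from 35.4, 19.1 and 13.3 to 22.6, 12.3 and 7.85 TPM (log2 -0.62 ± 0.05, adjusted p = 0.0123). Mmp14, the membrane protease that activates it, fell from 49.2, 25.8 and 22.1 to 35.3, 14.7 and 12.3 TPM. Col3a1, a fibrillar collagen, fell from 304, 160 and 33.8 to 216, 64.7 and 18.7 TPM (log2 -0.79 ± 0.12, adjusted p = 0.0174), and Col1a1 from 184, 90.6 and 27.6 to 133, 40.04 and 17.5 TPM. The P11 libraries held the most of these transcripts and P14 the least at each dose. Sparc, a collagen-binding glycoprotein, fell from 679, 501 and 494 to 476, 371 and 383 TPM without overlap, and Bgn, the proteoglycan biglycan, from 104, 64.9 and 20.9 to 72.7, 37.6 and 12.1 TPM. Fn1, the fibronectin gene, and Lox, which crosslinks collagen, fell by 0.70 and 0.82 on the log2 scale. Serpinh1, the collagen chaperone, fell from 184, 80.5 and 48.1 to 128, 46.1 and 28.8 TPM. Only 1 of the list was called when the 1 µM P13 library was left out, with a median of -0.44.

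Families counted by symbol, a grouping made after the values were seen, add other named proteins. Of 37 collagen chains 8 were called lower and 2 higher. The 2 higher, Col9a3 and Col11a2, rose by 0.42 each on the log2 scale, Col9a3 from 52.8, 50.05 and 62.3 to 67.3, 66.0 and 73.8 TPM. Of 4 lysyl oxidases 3 were lower, of 10 annexins 3, of 8 S100 proteins 3 and of 22 integrin chains 5. Over the 18 families counted the share called ran from 8% (2 of 25 SNARE proteins, 1 in each direction) to 75% (the lysyl oxidases), beside 4.3% of all genes, with 3 of 23 glutamate receptors and 2 of 14 tubulins in between. Anxa1, an annexin with anti-inflammatory activity, fell from 31.7, 20.7 and 13.5 to 19.3, 12.5 and 6.85 TPM.

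RNA that marks microglia and macrophages was lower at 10 µM. Of 30 tested markers 14 were called lower and none higher (46.7% called), with a median of -0.37 and -0.22, -0.40 and -0.46 in P11, P13 and P14. The summed level of the list was 2507, 3061 and 2534 TPM at 1 µM and 2157, 2200 and 1744 TPM at 10 µM, and Siglech was at 0 in all 6 libraries. Itgam, the integrin chain CD11b, fell from 12.4, 16.4 and 16.8 to 8.49, 9.91 and 10.9 TPM, with no overlap (log2 -0.58 ± 0.06, adjusted p = 0.0123). Cd68, a lysosomal glycoprotein, fell from 76.8, 92.2 and 90.0 to 57.1, 68.7 and 65.9 TPM, and Mrc1, a mannose receptor, from 8.44, 12.6 and 10.996 to 5.46, 6.43 and 7.56 TPM. Aif1, C1qa and Trem2 fell by 0.42, 0.29 and 0.44 on the log2 scale.

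Several defining microglial genes did not pass. Csf1r, the receptor on which microglia depend, read 57.5, 95.2 and 89.1 TPM at 1 µM and 55.0, 65.6 and 65.3 TPM at 10 µM (adjusted p = 0.117). P2ry12, a purine receptor, read 4.30, 7.80 and 6.32 TPM against 3.71, 4.92 and 5.45 TPM. Cx3cr1, the fractalkine receptor, changed by -0.30 ± 0.10 (adjusted p = 0.128). A single marker was called without the 1 µM P13 library, with a median of -0.38. That library held the highest level of the 9 libraries in 18 of the 30 markers.

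The lysosome list was balanced in sign, with more calls lower than higher. Of 31 lysosome genes 6 were called lower and 1, the calcium channel Mcoln1, higher (22.6% called), while 15 had a positive and 16 a negative fitted change, the median was -0.021, and 7 were higher and 11 lower at an unadjusted p under 0.05. The part of the lower microglial markers in the genes that fell was not tested. Ctsb, a cathepsin, fell from 572, 675 and 599 to 486, 488 and 452 TPM, and Gpnmb, a glycoprotein of lipid-laden phagocytes, from 142, 281 and 194 to 113, 148 and 118 TPM. Grn and Lipa fell by 0.20 and 0.31 on the log2 scale. In the families counted afterwards 6 of 11 cathepsins and 6 of 24 complement components were lower, the latter including C1r, C1s and Serping1 at -0.85, -0.81 and -0.96. Lgals3, a galectin of activated phagocytes, fell from 49.4, 91.4 and 58.0 to 30.2, 42.2 and 28.0 TPM, and Msr1, a scavenger receptor, from 10.1, 12.8 and 8.64 to 6.14, 5.32 and 4.28 TPM.

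NF-kB is a transcription factor that inflammatory signals release into the nucleus, where it turns on cytokines and its own inhibitors. All 28 tested genes of that list had a negative fitted change, and 10 were called lower (35.7%), with a median of -0.53 and -0.34, -0.69 and -0.37 in P11, P13 and P14. The microglia and macrophage markers, 14 of 30 lower with a median of -0.37, moved with this list, and their part in it was not tested. The sites below are shown because the list's promoters hold this motif and of the 4 called members that carry it, 3 have it before their start and are printed (the other is Nfkb1). The motif, GGGA and TTTCC with any 1 base between, was searched on both strands of promoters of 300 bases (250 before to 50 after the start, RefSeq, build GRCr8). It was in 7 of 24 promoters found for the list (29.2%) and in 0.362% of all 33469. The list was drawn up as NF-kB and cytokine genes, so a high share comes with the choice of members and says nothing about dose. The carriers Il6, Cxcl1 and Nfkb2 were not called. Among all genes called lower the motif was in 7 of 329 promoters (2.13%), and among those called higher in 0 of 154. Capitals mark the match, and a match describes letters and not a bound site.

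Nfkbia (chr6:78597084-78597113, minus strand, match starting 31 bases before the start): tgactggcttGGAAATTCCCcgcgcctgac
Nfkbiz (chr11:58251698-58251727, plus strand, 13 bases before): tttttggcctGGGAATTTCCagcgtgtgga
Tnfaip3 (chr1:15544027-15544056, minus strand, 67 bases before): tcacgtgactGGAAAGTCCCtcggaaatcc

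Nfkbia encodes the inhibitor that holds NF-kB in the cytoplasm, Nfkbiz a nuclear cofactor and Tnfaip3 the deubiquitinase A20, which shuts the pathway down. Nfkbia fell from 49.98, 94.4 and 73.8 to 39.9, 63.0 and 57.6 TPM (log2 -0.35 ± 0.06, adjusted p = 0.0228). Nfkbiz fell from 11.2, 18.3 and 16.9 to 8.70, 10.5 and 11.1 TPM with no overlap, and Tnfaip3 from 15.4, 13.6 and 13.1 to 12.4, 8.77 and 10.6 TPM. Of the cytokines, Tnf fell from 3.01, 6.61 and 4.86 to 1.13, 3.27 and 2.82 TPM, 1.97-fold (log2 -0.98 ± 0.16, adjusted p = 0.0225), and Il1b from 27.2, 24.7 and 16.8 to 19.9, 16.1 and 11.3 TPM. Lcn2, the iron-binding lipocalin of reactive glia, fell from 4.05, 199 and 73.4 to 2.36, 88.0 and 37.3 TPM (log2 -0.97 ± 0.09, adjusted p = 0.0123). Its level differed far more between P numbers than between doses.

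The chemokines Ccl2 and Ccl7, which draw monocytes, fell 2.3- and 2.48-fold. Ccl2 read 11.7, 77.5 and 19.9 TPM at 1 µM and 6.26, 19.5 and 11.9 TPM at 10 µM, and the 1 µM P13 library was well above all others in it. Vcam1, an adhesion molecule, fell from 41.7, 60.5 and 72.9 to 27.3, 35.8 and 57.6 TPM. Sod2, C3 and Icam1 did not pass (log2 -0.07 ± 0.06, -0.26 ± 0.07 and -0.41 ± 0.13). Without the 1 µM P13 library 1 of the list was called and the median was -0.39. That library held the highest level of the 9 libraries in 15 of the 28 genes. The AP-1 motif TGANTCA, also searched on both strands, was in 8 of 24 of these promoters (33.3%) and 7.33% of all.

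Interferon-stimulated genes, the antiviral program that type I interferon turns on, did not change in one direction. All 28 tested had a negative fitted change with a median of -1.03, yet only Psmb8 and Psmb9, subunits of the immunoproteasome, were called (7.14%). The medians were -0.62 in P11, -2.25 in P13 and 0.29 in P14. All 28 genes were highest of the 9 libraries in the 1 µM P13 library, whose median level was 33.1 TPM against 4.93 to 10.1 TPM in the other 8. Isg15, a ubiquitin-like protein, read 5.96, 68.8 and 2.70 TPM at 1 µM and 1.248, 1.49 and 5.50 TPM at 10 µM. Irf7, a master regulator of the response, read 4.13, 40.2 and 1.60 TPM against 1.91, 1.10 and 3.22 TPM, and Mx1, an antiviral GTPase, 9.54, 61.1 and 2.23 TPM against 3.16, 1.38 and 5.19 TPM. In each of these the P11 and P13 libraries were lower and the P14 library higher at the larger dose. Without the 1 µM P13 library the list median was -0.23 and none was called. Psmb8 read 11.4, 16.9 and 11.7 TPM at 1 µM and 8.82, 6.50 and 6.29 TPM at 10 µM, lower in each P number.

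The promoters of the interferon list are shown for the element through which this program is switched on. The motif, TTTC and TTTC with any 2 bases between, was in 16 of 22 of them (72.7%), against 3.92% of all 33469, on either strand. The list was drawn up as interferon-stimulated genes, so a high share comes with the choice of members. Promoters of all genes called lower held it in 5.17% and those of genes called higher in 2.6%. Of the examples printed Psmb8 was called, and Irf7, Rsad2 and Gbp2 were not.

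Irf7 (chr1:205800073-205800102, minus strand, match starting 69 bases before the start): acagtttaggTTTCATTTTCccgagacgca
Rsad2 (chr6:48788248-48788277, minus strand, 147 bases before): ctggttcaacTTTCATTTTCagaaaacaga
Gbp2 (chr2:234005686-234005715, plus strand, 31 bases before): agttttttagTTTCACTTTCattgtcttaa
Psmb8 (chr20:4657016-4657045, minus strand, 4 bases before): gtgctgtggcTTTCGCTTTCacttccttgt

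Rsad2, the antiviral enzyme viperin, read 4.83, 27.8 and 1.87 TPM at 1 µM and 0.612, 0.687 and 3.996 TPM at 10 µM. Gbp2, a guanylate-binding GTPase, read 16.7, 55.9 and 14.02 TPM against 12.6, 13.7 and 9.88 TPM, so that it was lower in each P number. For the cholesterol list the sterol element TCACNCCAC was searched likewise, and it was in none of 20 promoters (1.12% of all), which says only that these letters are not in the windows.

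**Figure D3:**
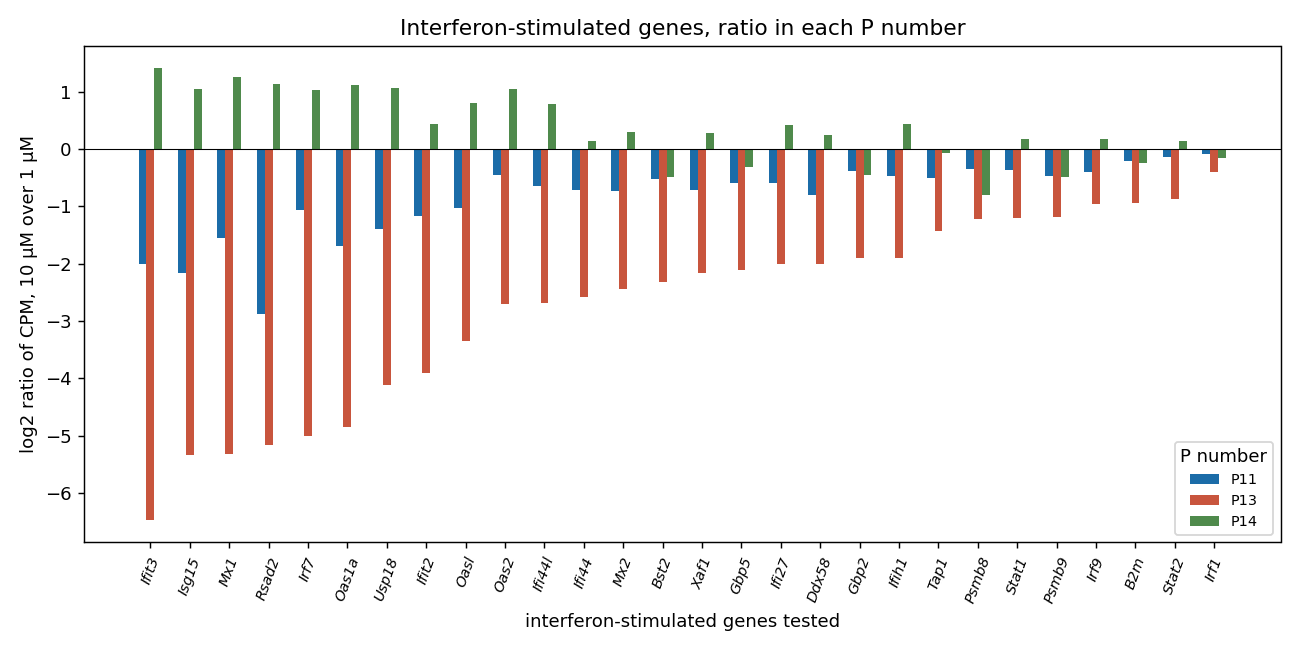
Bars give the log2 ratio of CPM (counts scaled by library total) at 10 µM over 1 µM for each of the 28 interferon-stimulated genes, separately for P11, P13 and P14. The P13 bars are the longest downward ones, and many P14 bars point up.

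Calls in the stress lists were few in number, at shares from 0% to 18.8% beside 4.3% of all genes. Of 33 integrated stress response genes (6.06% called) 28 had a negative fitted change, 11 were lower at an unadjusted p under 0.05 (12.8% of all genes were) and 2 were called lower, Slc7a11, the cystine transporter, from 7.04, 4.78 and 5.75 to 3.90, 2.90 and 2.71 TPM, and Nupr1, a stress-induced nuclear protein, from 58.6, 27.6 and 10.4 to 30.6, 15.8 and 3.33 TPM. Of 21 unfolded protein response genes edgeR called none (1 higher and 1 lower at an unadjusted p under 0.05), DESeq2 1 and limma none. Of 22 NRF2 and metallothionein genes 3 were lower and 1 higher (18.2% called). In that list 16 had a negative fitted change, with 8 lower and 1 higher at an unadjusted p under 0.05. Hmox1, which breaks down haem, fell from 39.9, 61.0 and 52.8 to 28.5, 37.6 and 35.5 TPM (log2 -0.52 ± 0.06, adjusted p = 0.0141), Mt2A, a metallothionein, from 229, 371 and 338 to 142, 263 and 211 TPM, and Ftl1, a ferritin chain, rose from 2142, 2124 and 2161 to 2571, 2832 and 2309 TPM. Hspa1b, a heat shock protein with a near-identical copy that leaves its count uncertain, rose from 1.18, 0.999 and 0.689 to 2.03, 2.35 and 1.73 TPM, while basal cultures had 2.42, 2.84 and 2.27 TPM. Of 19 chaperones (10.5% called) the only other call was Serpinh1, lower.

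Of 16 p53 targets 2 were lower and 1 higher (18.8% called). In that list 13 had a negative fitted change (median -0.17). At an unadjusted p under 0.05 there were 8 lower and 1 higher (12.8% and 8.43% of all genes were). Cdkn1a, the cell cycle inhibitor p21, fell from 139, 139 and 110 to 99.5, 71.3 and 75.5 TPM, with no overlap (log2 -0.57 ± 0.07, adjusted p = 0.0141), and Fas, a death receptor, from 5.95, 7.47 and 6.87 to 4.23, 4.07 and 4.17 TPM. Plk3, a stress kinase, rose from 21.0, 19.1 and 22.1 to 25.8, 24.2 and 26.01 TPM. Of 39 cell cycle genes none was called by edgeR (1 lower at an unadjusted p under 0.05), by DESeq2 or by limma, with a list median of -0.26 in P11, 0.11 in P13 and 0.15 in P14. Mki67, the proliferation marker, read 10.3, 17.0 and 17.9 TPM at 1 µM and 8.42, 13.6 and 17.3 TPM at 10 µM (adjusted p = 0.604). Of 26 hypoxia and glycolysis genes 3 were lower (11.5% called), Pfkfb3, a glycolytic activator, Adm, the peptide adrenomedullin, and Egln3, an oxygen sensor, by 0.34, 0.75 and 0.30 on the log2 scale.

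In 3 signalling lists the share called, 3.85% to 6.67%, was near the 4.3% of all genes. Of 26 immediate early genes 1 fell, Junb, from 31.5, 36.7 and 32.4 to 22.3, 29.5 and 23.1 TPM, and of 15 MAPK feedback genes 1, Fosl1, from 1.06, 2.29 and 1.56 to 0.539, 0.784 and 0.899 TPM. Both encode AP-1 subunits. Of 20 Wnt, BMP and Notch genes 1 fell, Dkk3, a secreted Wnt modulator. Of 14 xenobiotic response genes 2 fell (14.3% called), Cyp1b1, an oxidase, from 53.8, 41.8 and 12.98 to 38.1, 24.6 and 7.90 TPM, and Ephx1, an epoxide hydrolase, from 49.9, 37.9 and 25.2 to 36.5, 22.6 and 17.1 TPM.

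Of 36 axon guidance and adhesion genes 6 were lower and 1 higher (19.4% called). The receptors Robo1 and Robo2 fell by 0.38 and 0.30 on the log2 scale, and the semaphorin co-receptors Nrp1 and Nrp2 by 0.41 and 0.46. Sema4d, a semaphorin that oligodendrocytes display, rose from 189, 191 and 243 to 223, 230 and 288 TPM (log2 0.35 ± 0.06, adjusted p = 0.0218).

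The 13 protein genes of the mitochondrial genome all had a positive fitted change with a median of 0.36, and edgeR called none of them. At an unadjusted p under 0.05 there were 11 higher (against 8.43% of all genes), DESeq2 called 7 and limma none. Leaving out the 10 µM P11 library made edgeR call 10 of the 13, with a median of 0.51, and leaving out the 10 µM P13 library gave none and a median of 0.20. The list median was 0.08 in P11, 0.68 in P13 and 0.30 in P14. Of the 9 libraries the 1 µM P13 library was the lowest in 11 of the 13 genes, so the P13 ratio leans on that library. All genes with a symbol starting in Mt- together took 2.71%, 2.21% and 2.83% of reads at 1 µM and 2.74%, 3.25% and 3.36% at 10 µM. Mt-nd4, a complex I subunit, read 2581, 1660 and 2474 TPM at 1 µM and 2668, 2853 and 3332 TPM at 10 µM (log2 0.52 ± 0.15, adjusted p = 0.0901). Of 56 nuclear genes of oxidative phosphorylation edgeR, DESeq2 and limma called none (8 higher at an unadjusted p under 0.05 in edgeR), and of 72 cytosolic ribosomal protein genes edgeR and limma called none and DESeq2 1 (1 higher at an unadjusted p under 0.05 in edgeR).

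Marker lists of other cell types had 1 to 4 called members each, at shares from 7.41% to 22.2% beside 4.3% of all genes. Of 27 astrocyte markers 3 were lower (11.1% called): Gja1, the gap junction protein, from 242, 97.1 and 73.1 to 191, 62.7 and 42.5 TPM, Slc4a4, a bicarbonate carrier, and Clu, the chaperone clusterin. Gfap read 561, 949 and 867 TPM at 10 µM and Slc1a2, the glutamate transporter, went from 54.2, 57.4 and 81.5 to 43.1, 26.7 and 60.9 TPM, and neither passed (adjusted p = 0.0654 and 0.0711). The astrocyte median was -0.36 in P11, 0.09 in P13 and -0.28 in P14, and the summed level went from 4205, 3970 and 5021 to 3597, 3646 and 4223 TPM. Of 18 mural and fibroblast markers 3 were lower, the collagens Col3a1 and Col1a1 with the proteoglycan Dcn, and 1 was higher, Mylk (22.2% called, median -0.39). That list's median was -0.39 in P11, -0.08 in P13 and -0.56 in P14, with 5 members positive and 13 negative. Its summed level was 842.7, 680.9 and 525.6 TPM at 1 µM and 637.8, 512.4 and 488.2 TPM at 10 µM. This sum includes the precursor genes Pdgfra and Cspg4, in P14 243 and 35.4 TPM at 1 µM and 267 and 36.0 TPM at 10 µM. The pericyte genes Rgs5, Kcnj8 and Abcc9 were under 1 TPM in all 6 libraries. Col3a1 and Col1a1 are also described with the matrix genes, and the part of this list in those genes was not tested.

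Of 11 endothelial markers 2 were lower (18.2%, list median -0.47), Eng and Cdh5, while Cldn5, Tie1, Tek and Vwf stayed under 1 TPM. Of 27 neuron markers Elavl3 was higher (log2 0.24 ± 0.04) and Gad1, which makes GABA, lower (log2 -0.24 ± 0.05). Of 8 ependymal markers 1 was lower (12.5%), Ttr, the thyroxine carrier, from 504, 351 and 888 to 349, 240 and 615 TPM. Ttr made up most of the list's summed level, which was 517, 374 and 913 TPM at 1 µM. The listed genes Ak7, Ccdc153, Cfap126, Pifo and Tmem212 were under 1 TPM in all 6 treated libraries. Among the 8, 3 had a positive and 5 a negative fitted change. Of 10 Schwann cell markers 1 was higher.

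**Figure D4:**
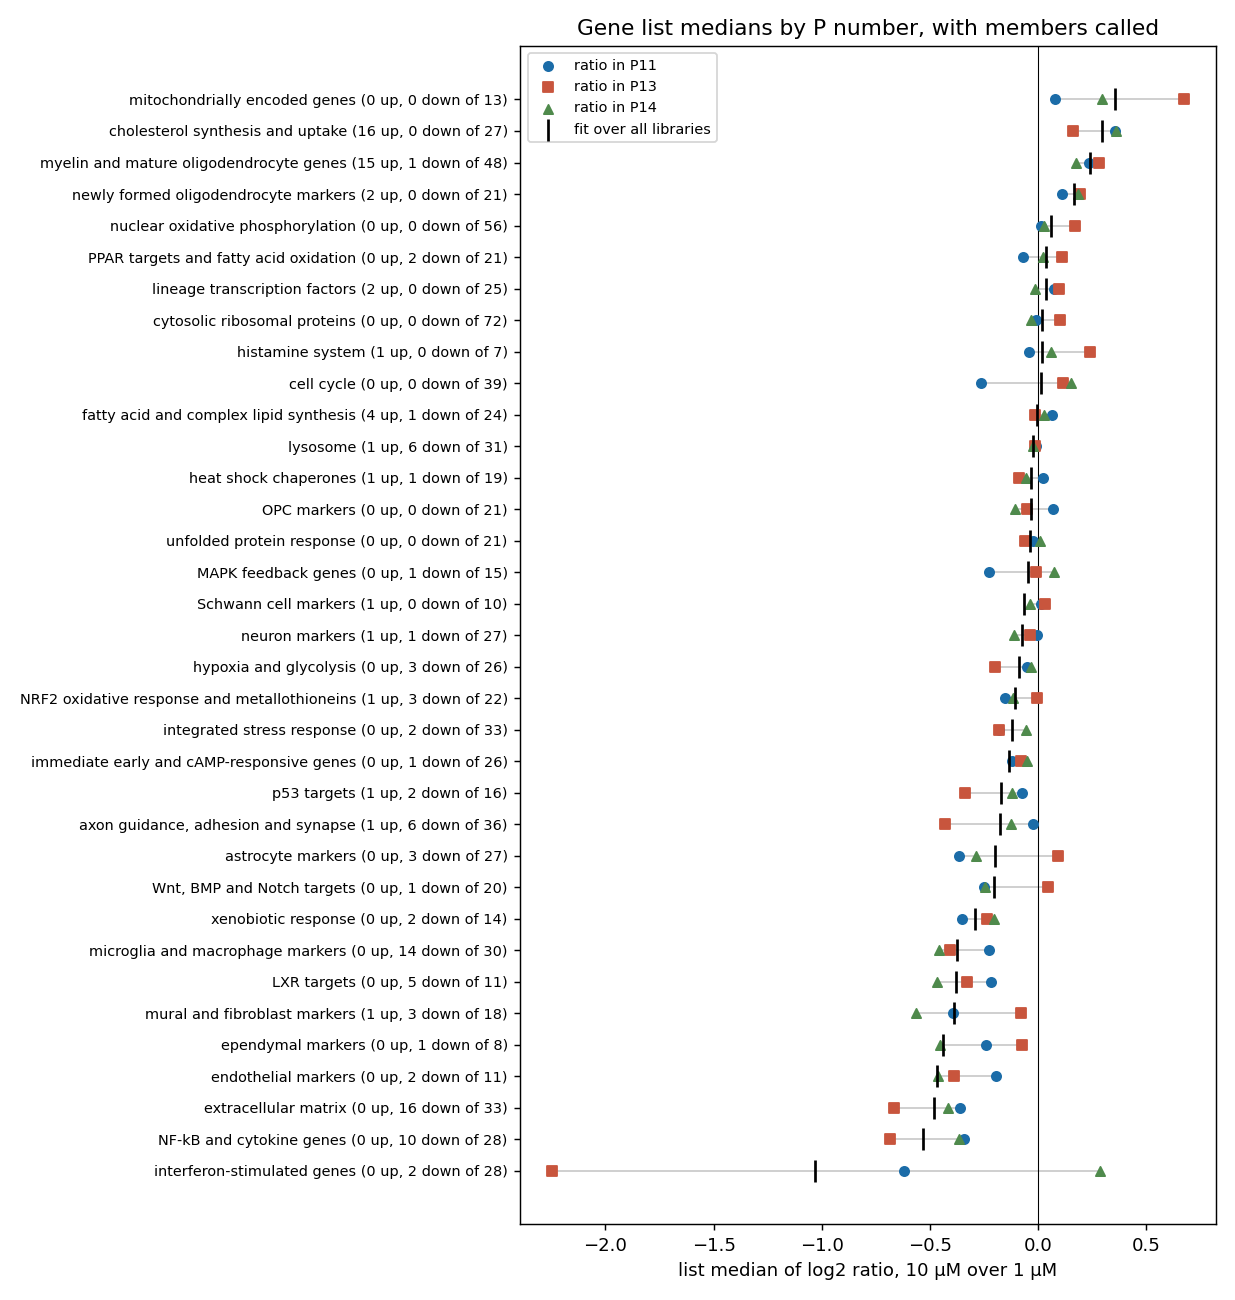
For each of the 35 gene lists, the horizontal axis gives the median log2 ratio of 10 µM over 1 µM in P11 (circles), P13 (squares) and P14 (triangles) and the median of the fit over all libraries (bars). Myelin and cholesterol lists lie right of 0 and matrix, LXR, NF-kB and microglia lists left of 0 in every P number, while the interferon list runs from -2.25 to 0.29.

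The basal libraries, which share the fit, place both doses. In the same edgeR fit 607 genes (3.96%) differed between 10 µM and basal cultures, 202 higher (1.32%) and 405 lower (2.64%) at 10 µM, and none (0%) between 1 µM and basal, where 1 µM had 582 genes at an unadjusted p under 0.05. These comparisons share libraries with the one above, so the values are given only side by side. Mbp differed from basal by 0.54 at 10 µM and 0.03 at 1 µM on the log2 scale, Idi1 by 0.58 and 0.13, and Abca1 by -0.90 and -0.10. Lcn2 differed from basal by -0.67 and 0.30, Nupr1 by -0.12 and 0.89, and Esm1 by -0.44 and 1.14 in the same order. Hspa1b differed by -0.19 and -1.37. For the last 3 genes the larger distance from basal was that of the 1 µM libraries, and none of them passed there (adjusted p = 0.563 for Hspa1b, the lowest of the 3).

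**Figure D5:**
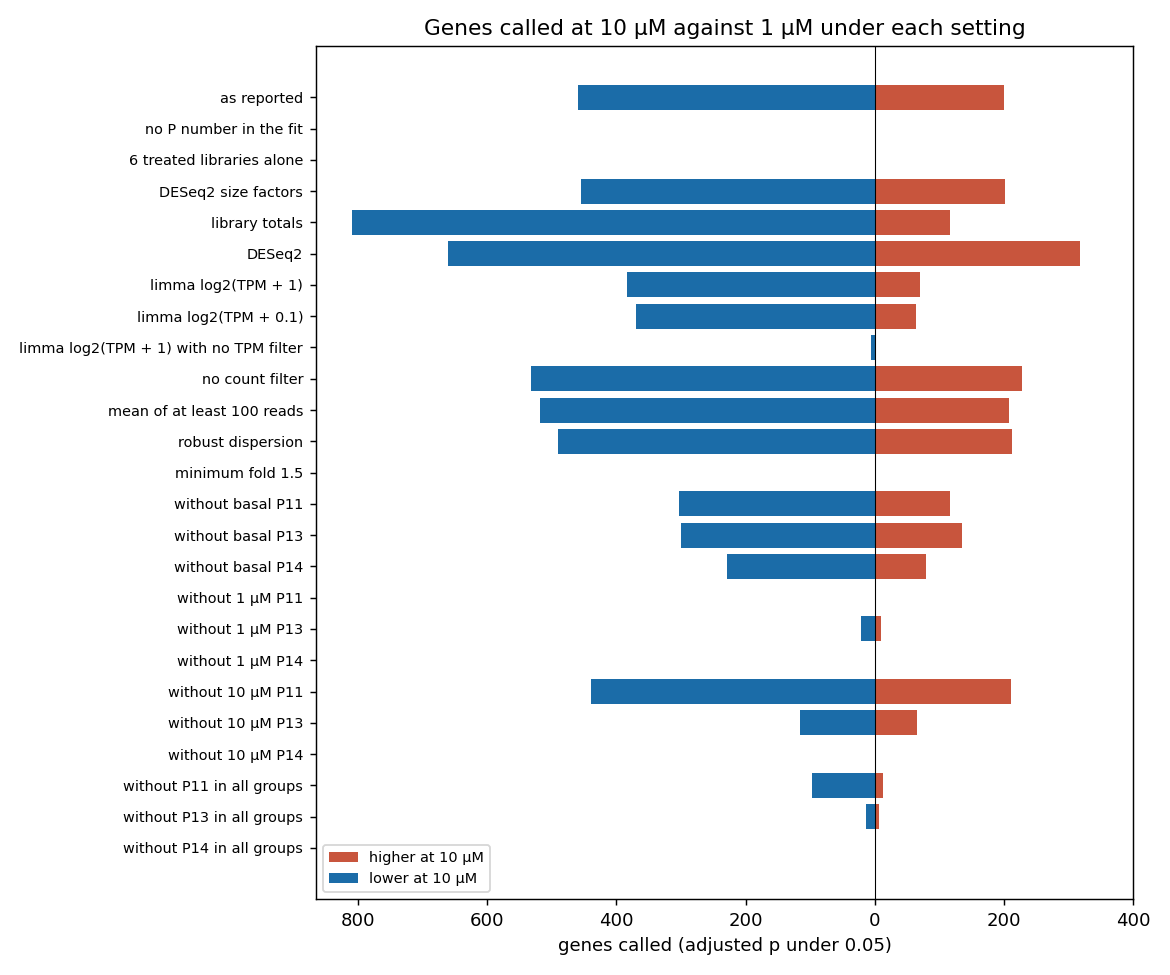
Bars give the number of genes called higher (right, red) and lower (left, blue) at 10 µM against 1 µM for the reported fit and for each of 24 other settings or left-out libraries. The reported 200 and 459 shrink to 0 under 7 of these, among them the fit without the P number and the runs without the 1 µM P11, 1 µM P14 or 10 µM P14 library.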

How the data were processed

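Per the submitters' processing notes, reads were handled with FastQC, Trimmomatic, DRAGEN and Picard on build rn6. Not given in the sources used here are the counter, strand setting and annotation. The labels' protocols name RNeasy extraction, Illumina Stranded mRNA Prep and 75-base reads. The authors deposited estimated counts (expected counts) per gene, 92.7% of them whole, with no scaling between libraries. The authors also deposited TPM, scaled for gene length. Of 32623 Ensembl IDs 399 had no symbol (up to 0.0111% of the reads of any library). Where strand or copies are not told apart, antisense partners and close paralogs can share counts.

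Estimated counts were rounded and tested in R 4.3.3 with edgeR 4.0.16 (quasi-likelihood F test, TMM, filterByExpr with count minimum 10 and total minimum 15) on all 9 libraries, with group and P number as terms and 4 residual degrees of freedom. Genes with a Benjamini-Hochberg adjusted p under 0.05 over all 15321 tested were called. The SE is the log2 fold change divided by the square root of F. The P number was a term because the comparison pairs libraries by it, and all 9 same-number pairs correlated over 0.1 (lowest 0.319), so the numbers were taken to pair the libraries; replicate libraries differed beyond sampling noise. Levels and SDs use TPM, and log2 ratios per P number use CPM (counts scaled by library total) with a prior count of 2. Depth was 23.9 to 43.1 M reads (M, 1e+06), and a gene listed at 0 could have up to 3 reads by counting error.

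The members and the 35 gene lists (886 of 925 symbols in the file, 845 tested) were chosen with earlier results of these data known. Named genes are, in each direction, the 10 largest called changes among genes with a symbol, averaging 2 CPM or more, that went 1 way in all P numbers. Some genes so chosen or among the list members are not reported here. To these come up to 4 called members of each list with the smallest p, and a core of 26 lineage, histamine, sterol and glial genes. Any further list member was picked with its value in view. Other settings were another scaling (DESeq2 size factors, library totals), DESeq2 1.42.0, limma 3.58.1 on log2(TPM + 1) or log2(TPM + 0.1), other low-count filters, robust dispersion, a 1.5-fold minimum, the 6 treated libraries alone, no P number, and leaving out libraries. The steps were tested on simulated data. Promoters are RefSeq, build GRCr8, searched with Python 3.11.15, and no coordinates of rn6 were used.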

Additional observations from a re-analysis of the deposited data

How the results depend on the processing

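The 659 calls (200 higher, 459 lower) depend on the block by P number: without it 0 genes were called (717 at an unadjusted p under 0.05), and with the block but the 6 treated libraries alone or a 1.5-fold minimum also 0. Library totals gave 117 higher and 809 lower, so that 87.4% of calls were lower against 69.7%, with a median shift of -0.0616 over all genes. DESeq2 gave 979 calls, 318 higher. Limma gave 453 with log2(TPM + 1) (70 higher, 84.5% lower), 433 with log2(TPM + 0.1) (63 higher, 85.5% lower) and 6 without a TPM filter (0 higher, 6 lower). Without all P11, P13 or P14 libraries 110 (12 and 98), 20 (7 and 13) and 0 were called. Over the 9 runs that each leave out 1 library the calls ranged from 0 to 651 (0 to 211 higher, 0 to 440 lower). DESeq2 size factors, robust dispersion, a minimum mean of 100 reads and dropping the count filter gave 656 to 760. In all 24 settings every called gene with a value kept its direction, which their choice from these same libraries largely fixes. Of 111 named genes 99 were called, and these stayed called in a median of 4 (0 to 6) of the 9 runs. Hrh1, not called, turned positive without the 1 µM P14 (0.13), 10 µM P11 (0.06) or 10 µM P14 library (0.02) and without all P14 libraries (0.12), and ranged from -0.25 to 0.13 over the 9 runs. At 3 libraries a dose and 4 residual degrees of freedom, small changes in scarce genes such as Hrh3 were not detectable.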
